A study of Mus musculus with 4 samples.

Results

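RNA was sequenced from tumour cells sorted from the lungs of mice with floxed Rb1 and Trp53, which develop small cell lung cancer, and the genes described here are those of antibodies and of the cells that secrete them. They were chosen by name: every V, D and J segment and constant gene of the immunoglobulin heavy, kappa and lambda loci in the table, together with Jchain, Mzb1, Cd79a and Cd79b. This gave 90 of 17746 gene symbols: 23 Ighv, 45 Igkv and 3 Iglv segments, 1 Ighj, 2 Igkj and 1 Iglj segment, 7 heavy chain and 4 light chain constant genes, and the 4 partner genes. No Ighd segment was among them, and the symbol Ighd is the constant gene of IgD. The set was put together because immunoglobulin genes stood out in the comparison of the sorted groups, so their differences between those groups are given as a description. The calls that a fit across all genes made among them are counted at the end, and nothing is read from those counts.

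All mice carried the GFP-LC3-RFP-LC3ΔG knock-in, a reporter that is cut into a GFP part degraded by autophagy and an RFP part that stays. From live (DAPI-negative) cells carrying EpCAM and RFP, cells with GFP gave 2 libraries (GFP-positive) and cells without it gave 2 (GFP-negative). The sample titles assign high autophagic flux to the GFP-positive cells and the design text assigns it to the GFP-negative cells, so groups are named by GFP only. No label names the Cre driver, the age of the mice or how many animals a library holds, so p-values measure only the spread between these libraries, which may be technical. In RNA from sorted pools, fewer cells of a type and less RNA per cell cannot be told apart.

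The libraries held 51994432 to 73997175 counts. GFP-positive replicate 1 stood apart: it had counts for 6063 symbols, against 15710 to 17617 in the other 3 libraries. No symbol had counts in fewer than 2 libraries. A segment used in 1 library alone is therefore not analysed here, and 28 of the 90 genes were at 0 counts in 2 libraries. The table held 22 of 113 Ighv, 45 of 100 Igkv and 3 of 3 Iglv segments annotated as functional. Levels are CPM, read counts divided by the TMM-scaled library size. Each pair of values gives replicate 1 first, and where pairs are joined by "against" the GFP-positive pair comes first. Where a gene had 0 counts, up to 3 counts could have been missed by counting error alone, which is 0.080 and 0.047 CPM against 0.026 and 0.045 CPM.

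An antibody is built of paired heavy and light chains. Each B cell joins 1 V segment (with a D segment in the heavy chain) to a J segment by DNA recombination, so the V segments in an RNA sample show which receptors its B-lineage cells carry. The constant gene sets the class: IgM and IgD come first, and class switching replaces them with IgG, IgE or IgA. Plasma cells, the end stage of the lineage, transcribe their antibody genes at very high rates, and those that make IgA or IgM also make the joining chain Jchain, which links antibodies into polymers.

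The V segments that led in each library are shown by the 3′ end of their V exon, where the framework ends and CDR3, the most variable part of an antibody, begins. Each line gives the last 60 bases of the annotated exon in mm10, with the codon of the last in-frame cysteine in capitals. The first 3 are the light chain segments of GFP-positive replicate 1, at chr6:68768555-68768863 (minus strand), chr6:70371696-70371993 (plus strand) and chr16:19241207-19241530 (minus strand).
Igkv4-91: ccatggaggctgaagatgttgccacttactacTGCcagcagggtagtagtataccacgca
Igkv6-17: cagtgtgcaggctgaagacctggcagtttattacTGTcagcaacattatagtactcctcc
Iglv3: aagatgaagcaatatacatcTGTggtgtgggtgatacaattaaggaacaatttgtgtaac
The next 3 are the kappa segments with most counts in GFP-positive replicate 2, GFP-negative replicate 1 and GFP-negative replicate 2, at chr6:69416893-69417195, chr6:70406469-70406766 and chr6:70260409-70260706, all on the minus strand.
Igkv4-61: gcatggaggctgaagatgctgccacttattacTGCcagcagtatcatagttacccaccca
Igkv6-15: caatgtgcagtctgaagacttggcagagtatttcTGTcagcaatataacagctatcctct
Igkv6-23: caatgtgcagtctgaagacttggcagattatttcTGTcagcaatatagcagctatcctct
The last 2 are the heavy chain segments that led the GFP-negative libraries, at chr12:114788372-114788676 and chr12:113859149-113859453, both on the minus strand.
Ighv1-26: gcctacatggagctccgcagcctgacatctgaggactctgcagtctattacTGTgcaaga
Ighv5-17: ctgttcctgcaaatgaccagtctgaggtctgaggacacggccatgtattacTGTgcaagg
Igkv6-15 and Igkv6-23 differ at 16 of 298 aligned exon bases (94.6% identity) and Igkv6-17 and Igkv6-23 at 24 of 298. Over the V exon, 61 of 70 segments were more than 90% identical to another annotated segment of their locus, and 42 were more than 95% identical. How shared reads were assigned is not given in the sources used here, so the split between such segments is uncertain.

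Antibody genes were present in every library. They took 0.397% and 0.973% of all counts against 0.915% and 3.18%. As summed CPM this was 5505 and 10306 against 5966 and 33326, so GFP-negative replicate 2 was high, while GFP-negative replicate 1 lay between the GFP-positive libraries and the groups overlapped. The log2 ratio of the group means was 1.31, and it was -0.41 without GFP-negative replicate 2. GFP-positive replicate 1 had counts for 11 of the 90 genes, GFP-positive replicate 2 for 73, GFP-negative replicate 1 for all 90 and GFP-negative replicate 2 for 77. Of all 17746 symbols, 6063 and 16379 had counts in the GFP-positive libraries against 17617 and 15710 in the GFP-negative ones.

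**Figure D1:**
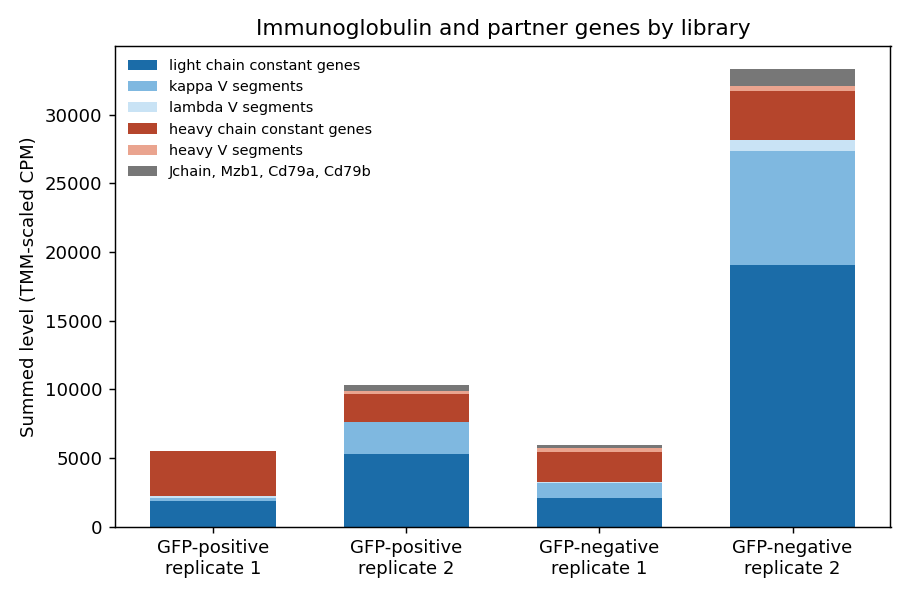
Summed level of the antibody and partner genes (TMM-scaled CPM, vertical axis) in each of the 4 libraries, with colours for the class of gene. GFP-negative replicate 2 reached 33326 CPM, against 5505 to 10306 CPM in the other 3, and GFP-positive replicate 1 shows nearly only constant genes.

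Igkc, the single constant gene of the kappa light chain, took 34.3% and 50.8% of the counts of all 90 genes against 34.1% and 54.3%. By FPKM it was the highest of the 90 in each library, with 51.6% and 54.5% of their summed FPKM against 42.0% and 53.3%. It stood at 1890 and 5238 CPM (GFP-positive) against 2034 and 18102 CPM (GFP-negative), so only GFP-negative replicate 2 exceeded both GFP-positive libraries. In FPKM, which also divides by gene length, Igkc ranked first of all gene symbols in both GFP-negative libraries, and 20th and 6th in the GFP-positive libraries. It took 0.136% and 0.494% of all counts in GFP-positive and 0.312% and 1.73% in GFP-negative libraries.

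The lambda constant genes were much lower. Iglc1 had 0 and 2.29 CPM (GFP-positive) against 1.13 and 866 CPM (GFP-negative), so 1 library held nearly all of it. Iglc2 had 0 and 18.5 against 42.2 and 28.9 CPM, with both GFP-negative libraries higher. Iglc3, 94.3% identical to Iglc2 over the annotated transcript, had 0 and 6.09 against 1.57 and 14.2 CPM. Iglj2 lies inside the annotated span of Iglc2, so their reads cannot be told apart by position.

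Kappa made up all 70907 light chain constant counts in GFP-positive replicate 1 (95% Clopper-Pearson lower bound 99.995%). In GFP-positive replicate 2 the share was 99.5% (99.5% to 99.5%), in GFP-negative replicate 1 97.8% (97.8% to 97.9%) and in GFP-negative replicate 2 95.2% (95.2% to 95.3%). These intervals cover counting error only, since amplified reads without molecular identifiers are not independent molecules. By constant genes both GFP-negative libraries thus had the larger lambda share, and 2 libraries against 2 allow no exact two-sided p below 0.333. By V segments the order was different: Igkv made up 68.3% and 98.5% of Igkv and Iglv counts against 95.5% and 91.7%, so the largest lambda share was in GFP-positive replicate 1.

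Lambda V segments followed their own pattern. Iglv1 had 0 and 30.9 CPM (GFP-positive) against 16.2 and 749 CPM (GFP-negative), highest where Iglc1 was highest. Iglv2 differs from it by 8 bases and 3 gap positions over 305 aligned bases and had 0 counts in both GFP-positive libraries beside 0.26 and 3.83 CPM in the GFP-negative ones. Iglv3 was highest in GFP-positive replicate 1, at 99.3 CPM, while its GFP-positive replicate had 5.65 CPM and the cells without GFP had 35.1 and 1.17 CPM. In GFP-positive replicate 1, Iglv3 had 3726 counts while all 3 lambda constant genes had 0 counts.

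The heavy chain classes differed more between libraries than the light chains did. Igha, the constant gene of IgA, the antibody of mucosal surfaces, had 0 and 98.4 CPM (GFP-positive) against 236 and 1308 CPM (GFP-negative), which did not overlap. Ighm, of IgM, had 0.21 and 890 against 646 and 752 CPM, with GFP-positive replicate 2 highest. Ighd, of IgD, had 0 and 113 against 4.82 and 319 CPM, and the groups overlapped.

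Among the IgG genes, Ighg2c (the IgG2c gene, found in C57BL/6 mice in place of IgG2a) was the only one abundant in all 4 libraries. It had 3302 and 336 CPM (GFP-positive) against 661 and 785 CPM (GFP-negative), highest in GFP-positive replicate 1. Ighg2b had 0.37 and 598 against 510 and 437 CPM, with similar levels in 3 libraries. Ighg1 had 0 counts in both GFP-positive libraries beside 144 and 14.6 CPM in the GFP-negative ones. Set against a floor of 3 counts per GFP-positive library, its mean was 1248-fold higher. That floor covers counting error only. Ighg3 was rare, at 0 and 2.15 against 0.99 and 4.37 CPM. Ighe, of IgE, was not analysed here.

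Because the constant genes differ in length, class composition was set out as shares of summed heavy chain FPKM. Ighg2c made up 99.99% of it in GFP-positive replicate 1, 24.2% in GFP-positive replicate 2, and 42.3% and 32.5% in the GFP-negative libraries. Ighm and Ighd together made up 0.0045% and 50.8% against 29.3% and 31.1%. IgG genes together made up 99.995% and 45.7% against 63.2% and 41.9%.

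IgA made up 0% and 3.53% of heavy chain FPKM in GFP-positive and 7.51% and 26.9% in GFP-negative libraries. By counts the IgA share was 4.83% in GFP-positive replicate 2 (95% Clopper-Pearson interval 4.71% to 4.95%), 10.7% in GFP-negative replicate 1 (10.6% to 10.8%) and 36.1% in GFP-negative replicate 2 (35.9% to 36.3%). GFP-positive replicate 1 had 0 of 123900 counts, with an upper bound of 0.0030% on the same interval. The mean of the GFP-negative libraries was 23.4%, with 10.7% or 36.1% left when either library was removed, so the GFP-negative libraries lay farther from each other than GFP-negative replicate 1 lay from GFP-positive replicate 2.

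**Figure D2:**
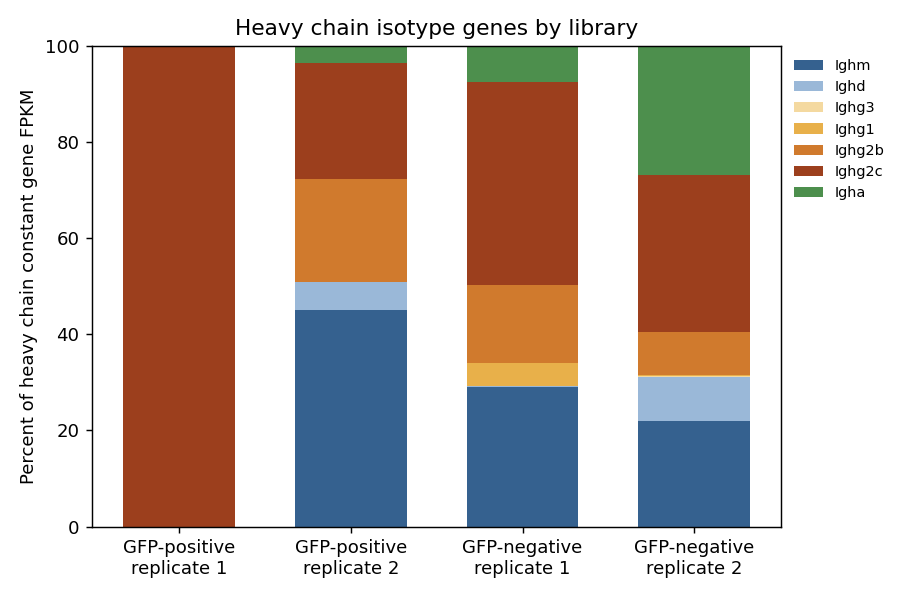
Share of each heavy chain constant gene in the summed heavy chain FPKM (percent, vertical axis) of each library. Ighg2c fills GFP-positive replicate 1, and the Igha share is 26.9% in GFP-negative replicate 2 against 3.53% and 7.51% in the other libraries that have it.

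The kappa V segments separated the libraries from one another. GFP-positive replicate 1 used 2 of them at depth: Igkv6-17 held 56.0% and Igkv4-91 43.9% of its 8034 Igkv counts, and 4 other segments had a few counts. GFP-positive replicate 2 had counts for 38 of 45 segments, and Igkv4-61 alone held 39.3% of them. GFP-negative replicate 1 had counts for all 45, led by Igkv6-15 at 15.3%, and GFP-negative replicate 2 for 36, led by Igkv6-23 at 19.1%. The effective number of segments (the inverse of the summed squared shares) was 1.98 and 4.96 (GFP-positive) against 12.4 and 10.7 (GFP-negative). Kappa usage was thus more even in both GFP-negative libraries. For Ighv the effective number was 7.27 in GFP-positive replicate 2 against 5.36 and 8.19, so the groups overlapped.

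Igkv4-91 was the only V segment with over 500 counts in all 4 libraries, at 93.9 and 59.0 CPM (GFP-positive) against 134 and 221 CPM (GFP-negative). Both GFP-negative libraries were higher. Igkv6-17 stood at 120 and 0 CPM against 0.26 and 6.53 CPM and was the only kappa segment with over 500 counts in GFP-positive replicate 1 and in no other library. The pair of segments that filled that library thus behaved differently elsewhere.

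Several segments were shared by GFP-positive replicate 2 and GFP-negative replicate 2 and nearly missing from GFP-negative replicate 1. Igkv4-61 had 0 and 919 CPM (GFP-positive) against 0.018 and 1228 CPM (GFP-negative), which is 58555 counts, 2 counts and 81753 counts in the libraries that had any. Igkv6-23 had 0 and 105 against 0.78 and 1593 CPM. Igkv14-126 had 0 and 50.1 against 0.14 and 805 CPM. In each case the replicates numbered 2 of both groups were high.

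Others were spread over all 3 of the fuller libraries. Igkv10-96 had 0.11 and 229 against 74.02 and 829 CPM. Igkv3-2 had 0 and 357 against 30.4 and 417 CPM. Igkv10-94, 94.6% identical to Igkv10-96, had 0 and 133 against 102 and 254 CPM. Igkv8-28 and Igkv1-110 also passed 500 counts in these 3 libraries, and GFP-positive replicate 2 was the highest library for Igkv1-110.

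Another set was found mainly in GFP-negative libraries. Igkv6-15 had 0.053 and 8.66 CPM (GFP-positive) against 169 and 545 CPM (GFP-negative). Igkv14-111, Igkv4-68, Igkv5-39 and Igkv6-25 passed 500 counts in both GFP-negative libraries and in neither GFP-positive library, with 63.2 and 184, 65.7 and 238, 23.4 and 372, and 26.2 and 158 CPM there. A further 8 segments passed 500 counts only in GFP-negative replicate 2 and 6 only in GFP-negative replicate 1, while 3 (Igkv13-85, Igkv4-63 and Igkv9-124) did so only in GFP-positive replicate 2. The share of all symbols with such patterns at this cut was not counted, and GFP-positive replicate 1 had counts for only 6063 of 17746 symbols. At this cut, most segments that passed only in the GFP-negative group thus did so in just 1 of its libraries. Below the cut they were mostly shared. GFP-negative replicate 1 had counts for all 45 Igkv segments, the 8 included. Of the 6, Igkv13-84 and Igkv6-20 had 0 counts in GFP-negative replicate 2, and the others had some.

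**Figure D3:**
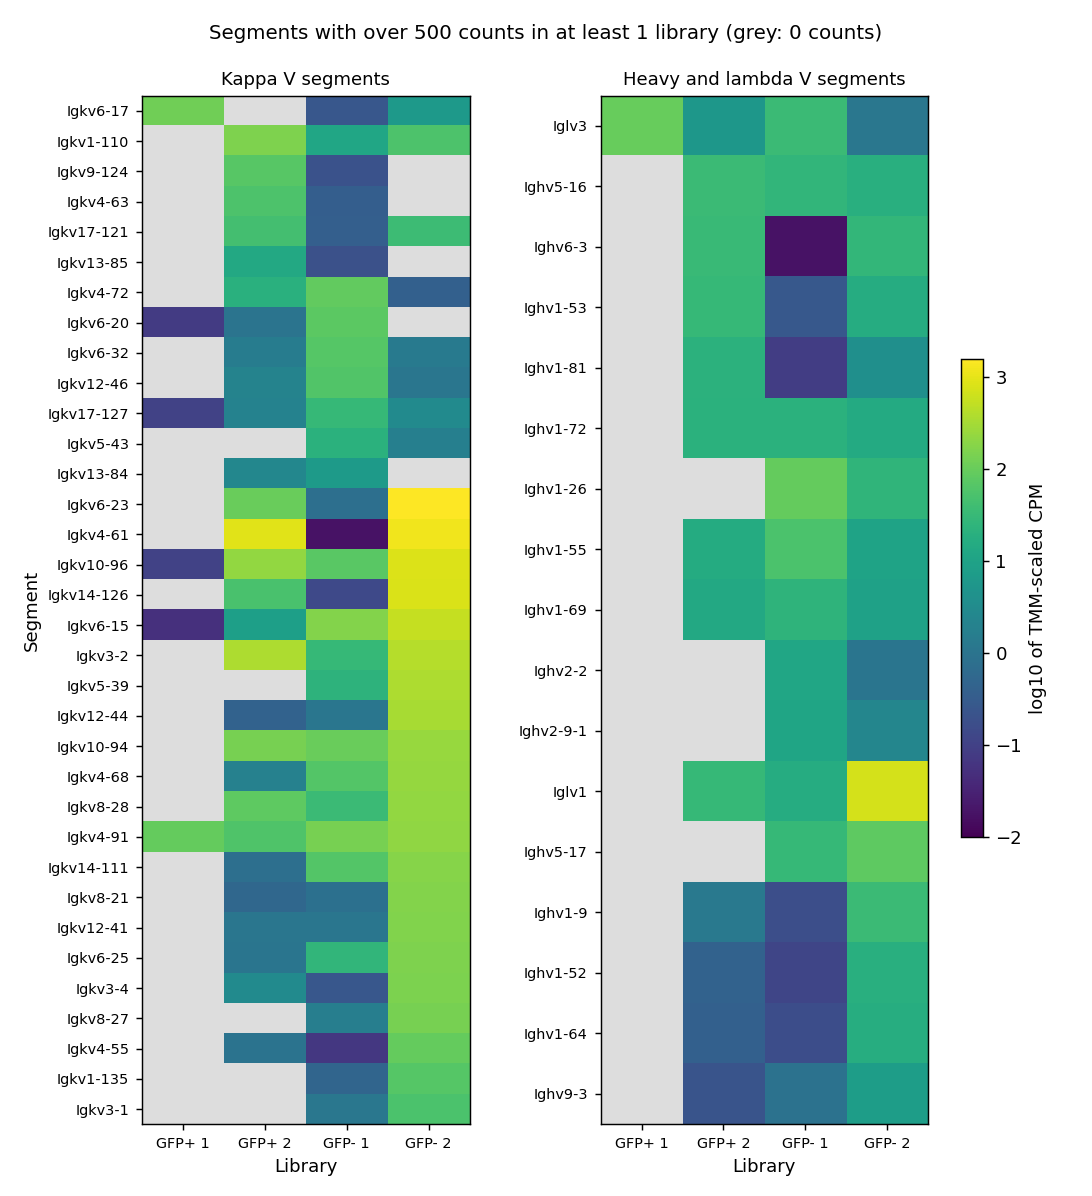
Level of each V segment with over 500 counts in at least 1 library (colour, log10 of TMM-scaled CPM, grey for 0 counts), with libraries across (GFP+ is GFP-positive, GFP- is GFP-negative) and segments down, ordered by the library of their highest level. The column of GFP-positive replicate 1 is grey except for Igkv6-17, Igkv4-91, Iglv3 and 4 segments with few counts.

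All 23 heavy chain V segments analysed here had 0 counts in GFP-positive replicate 1, beside 123900 counts of heavy chain constant genes. A segment used in that library alone is not analysed here, so its use of other heavy segments is not known. The other GFP-positive library had counts for 16 of 23, and the GFP-negative libraries for 23 and 19. Ighv1-26 had 0 counts in both GFP-positive libraries beside 92.2 and 25.6 CPM in the GFP-negative ones, and it held 33.2% of Ighv counts in GFP-negative replicate 1. Ighv5-17 was likewise at 0 counts with GFP, beside 30.3 and 81.1 CPM in the GFP-negative ones, and it held 26.9% of Ighv counts in GFP-negative replicate 2. Set against a floor of 3 counts in each GFP-positive library, the 2 segments lay 928-fold and 877-fold higher in the GFP-negative group mean. That floor covers counting error only.

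GFP-positive replicate 2 had 7 heavy segments with over 500 counts. Of these, 6 also passed 500 in the GFP-negative library numbered 2 and 4 in the one numbered 1. No symbol had counts in fewer than 2 libraries, and GFP-positive replicate 1 had no Ighv counts. Each Ighv segment of GFP-positive replicate 2 therefore had to have counts in a GFP-negative library, so nothing is read from this sharing. Ighv5-16 led GFP-positive replicate 2, with 0 and 34.4 CPM (GFP-positive) against 27.1 and 19.4 CPM (GFP-negative). Ighv6-3 had 0 and 34.1 against 0.018 and 27.7 CPM and was again shared by the replicates numbered 2. Ighv1-55 had 0 and 16.1 against 54.0 and 10.2 CPM, Ighv1-72 0 and 20.6 against 20.5 and 15.2 CPM, and Ighv1-69 0 and 13.5 against 24.4 and 9.51 CPM. Ighv1-9 was high in GFP-negative replicate 2 only, at 34.5 CPM, with 0 and 1.26 CPM in GFP-positive libraries and 0.18 CPM in GFP-negative replicate 1. Ighv1-72 is 99.0% identical to Ighv1-62-3, so its counts may in part belong to that segment.

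By subgroup, Ighv1, the largest heavy chain family of the mouse, held 58.4% of Ighv counts in GFP-positive replicate 2 and 69.3% and 51.1% in the GFP-negative libraries. Ighv5 held 18.8% against 20.9% and 33.4%, and Ighv6 18.4% against 0.0063% and 9.19%. Among kappa families, Igkv4 held 43.9% and 45.4% in GFP-positive and 26.4% and 21.4% in GFP-negative libraries, and Igkv6 56.0% and 5.09% against 31.0% and 27.6%. The Igkv4 share was thus lower in both GFP-negative libraries, while the Igkv6 shares overlapped. Different segments made up the Igkv4 share of the GFP-positive libraries. Igkv4-91 held 43.9% of Igkv counts in replicate 1 and 2.52% in replicate 2, where Igkv4-61 held 39.3%.

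Usage overlap, the sum over segments of the smaller of both libraries' shares, was read across 45 Igkv and 23 Ighv segments as a description. For Igkv, GFP-positive replicate 2 overlapped GFP-negative replicate 2 by 46.6% and GFP-negative replicate 1 by 24.3%, and the GFP-negative libraries overlapped each other by 35.2%. GFP-positive replicate 1 shared 2.69% with its own replicate and 12.3% and 2.84% with the GFP-negative libraries. For Ighv it was 40.2% between the GFP-negative libraries and 34.0% and 35.8% between each of them and GFP-positive replicate 2. Segments seen in only 1 library are left out of these shares. GFP-negative replicate 2 was thus closer in kappa usage to GFP-positive replicate 2 than to GFP-negative replicate 1. The library closest to GFP-negative replicate 1 was GFP-negative replicate 2.

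In all, 15 V and J segments had counts in both GFP-negative and in neither GFP-positive library, and 12 of them with at least 10 counts in each. With Ighg1 these were 16 of the 90 genes, beside 6.92% of all symbols with that pattern, and 13 of 90 beside 5.12% at the minimum of 10 counts. They were Ighv1-21, Ighv1-26, Ighv14-4, Ighv2-2, Ighv2-9-1, Ighv4-1, Ighv5-17, Ighj3, Igkv1-135, Igkv3-1, Igkv5-39, Igkv5-43, Igkv8-19, Igkv8-27 and Iglv2. Without GFP-positive replicate 2 the number was 56, or 67 of the 90 genes when constant and partner genes are counted, beside 55.7% of all symbols. Both GFP-negative libraries lay above both GFP-positive libraries for 29 of the 90 genes and for 26 of the 82 tested, beside 25.2% of all tested genes. Both lay below for 0 of 82, beside 6.63% of all tested genes. Since these genes were chosen on this contrast, nothing is read from the counts.

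V and constant counts were in proportion in 3 libraries. There were 44.6 Igkv counts per 100 Igkc counts in GFP-positive replicate 2 and 54.2 and 46.2 in the GFP-negative libraries, against 11.3 in GFP-positive replicate 1. Ighv counts per 100 heavy chain constant counts were 9.09 against 12.6 and 8.32, and 0 in GFP-positive replicate 1. Counts for V segments outside the table were not used here, so the shares are lower limits. The ratio of summed light to heavy constant FPKM was 1.43 and 9.47 (GFP-positive) against 3.31 and 19.8 (GFP-negative).

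The partner genes had no counts in GFP-positive replicate 1, where 6063 of 17746 symbols had counts. Jchain, the joining chain of polymeric IgA and IgM, had 0 and 202 CPM (GFP-positive) against 213 and 1126 CPM (GFP-negative), with both GFP-negative libraries higher. Per 100 counts of Igha and Ighm, Jchain had 20.4 counts in GFP-positive replicate 2 and 24.1 and 54.6 in the GFP-negative libraries. Mzb1, a chaperone of the endoplasmic reticulum that helps antibody assembly, had 0 and 18.5 against 7.58 and 20.4 CPM. Cd79a and Cd79b, the signalling chains of the B cell receptor, had 0 and 96.7 against 23.4 and 47.3 CPM, and 0 and 129 against 10.04 and 87.9 CPM, with GFP-positive replicate 2 highest for both. All 4 partner genes thus had 0 counts in the library with most Ighg2c, as most symbols of the table did.

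**Figure D4:**
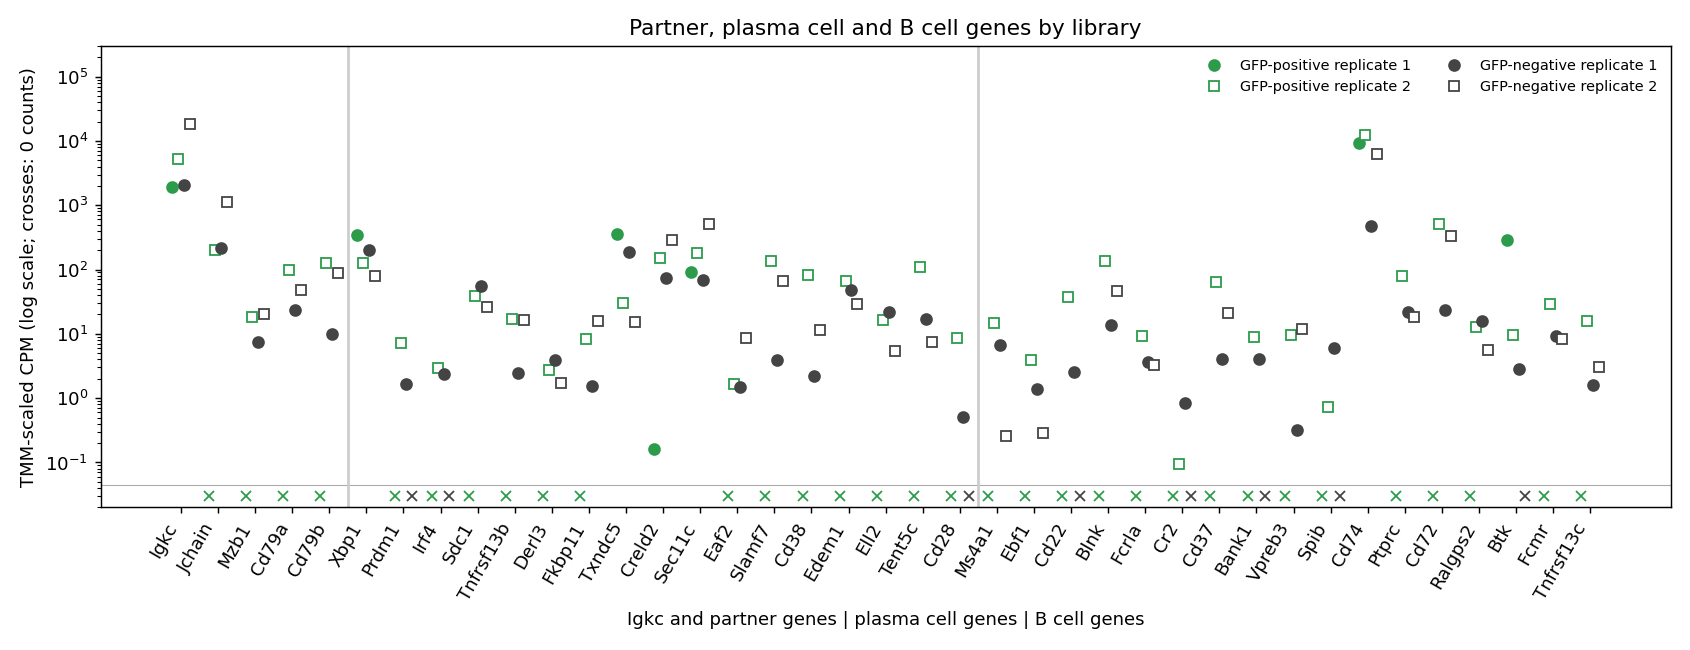
Level (TMM-scaled CPM, log axis) of Igkc and the partner genes, plasma cell genes and B cell genes in each library, with a symbol per library and crosses under the grey line for 0 counts. GFP-positive replicate 1 has counts for Igkc and for 4 plasma cell and 2 B cell genes, and GFP-positive replicate 2 has counts for every gene drawn.

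Plasma cell genes outside the set were examined next. Of 20 listed, 17 were in the table and 0 of 17 passed edgeR's test in either direction, beside 0.0982% of all tested genes. At an unadjusted p under 0.05 in that test there were 0, beside 3.1% of all tested genes. The median log2 change was 0.14 beside 0.91 for all tested genes. Xbp1, the transcription factor that builds the secretory apparatus of plasma cells and of other secretory cells, had 341 and 127 CPM (GFP-positive) against 205 and 80.3 CPM (GFP-negative). Prdm1, the factor that drives plasma cell fate, had 0 and 7.17 against 1.66 and 0 CPM, and Irf4 0 and 2.97 against 2.37 and 0 CPM. In GFP-negative replicate 2, the library with most antibody RNA, both were at 0 counts. Of the 17 genes, 3 were at 0 counts there, with Cd28 as the third, and the others had counts. Fkbp11 and Eaf2 were highest in that library, as were Sec11c and Creld2, while most of the 17 were highest in another library. Sdc1, the plasma cell and epithelial surface protein CD138, had 0 and 38.9 against 54.8 and 26.2 CPM. In GFP-positive replicate 1, 13 of the 17 were at 0 counts, against 0 to 3 in the others. Only 6063 of 17746 symbols had counts in GFP-positive replicate 1.

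The most abundant of these genes are not particular to plasma cells. Sec11c, a signal peptidase subunit, had 92.7 and 181 against 69.3 and 506 CPM, Creld2 0.16 and 149 against 74.2 and 289 CPM, and Txndc5 361 and 30.1 against 188 and 15.3 CPM. Over the 20 genes of protein folding and export in the endoplasmic reticulum, 0 passed the test and the median log2 change was -0.10, with 10 of 20 fitted above 0. Hspa5, its main chaperone, had 2963 and 1045 against 1556 and 643 CPM. Sec11c and Creld2 were highest in GFP-negative replicate 2, as Igkc was, while Txndc5 and Hspa5 were highest in GFP-positive replicate 1.

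B cell genes were at low levels. Of 22 listed, 18 were in the table and 0 of the 17 tested passed (1 at an unadjusted p under 0.05), with a median log2 change of -1.13. Ms4a1, which encodes CD20, had 0 and 14.7 CPM (GFP-positive) against 6.63 and 0.26 CPM (GFP-negative). Cd22 had 0 and 36.9 against 2.51 and 0 CPM, and Blnk 0 and 136 against 13.7 and 47.2 CPM. GFP-positive replicate 2 was the highest library for each of these 3 genes, but not for every listed B cell gene. Spib, Ralgps2 and Cr2 were highest in GFP-negative replicate 1, Vpreb3 in GFP-negative replicate 2 and Btk in GFP-positive replicate 1.

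The listed B cell genes with the highest levels are also made by myeloid cells. Cd74, the invariant chain of MHC class II, had 9372 and 12210 CPM (GFP-positive) against 469 and 6252 CPM (GFP-negative). Cd72 had 0 and 516 against 23.7 and 332 CPM, and Btk 288 and 9.70 against 2.85 and 0 CPM. In GFP-positive replicate 1, where 6063 of 17746 symbols had counts, 16 of the 18 genes were at 0 counts, all but Cd74 and Btk. Of the recombination and precursor genes, 3 of 8 were in the table and 0 passed: Dntt had 0 and 3.07 against 1.07 and 6.52 CPM, Il7r 0 and 3.15 against 2.93 and 0.15 CPM, and Bcl6 139 and 2.54 against 8.22 and 1.82 CPM.

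Genes that move or keep antibodies were listed too. Pigr, the epithelial receptor that carries polymeric IgA to the lumen, had 0 and 10.6 CPM (GFP-positive) against 10.4 and 6.83 CPM (GFP-negative), and 0 of the 6 transport and homing genes tested passed. Cxcl13, a chemokine that draws B cells, had 656 and 143 against 284 and 91.4 CPM. Itgb7, an integrin subunit of gut homing, had 320 and 14.8 against 8.19 and 0 CPM. Of 7 survival factors and receptors tested 0 passed. Tnfsf13b, the factor BAFF, had 0 and 18.7 against 2.33 and 12.4 CPM, and its receptor gene Tnfrsf13b 0 and 17.0 against 2.44 and 16.4 CPM. Cd40 had 200 and 19.0 against 0.70 and 7.04 CPM.

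Fc receptors, which bind antibodies on the surface of other cells, had a median log2 change of -1.43, and 0 of 9 tested passed (0 at an unadjusted p under 0.05). Fcer1g, the shared signalling chain, had 1545 and 4806 CPM (GFP-positive) against 52.3 and 2077 CPM (GFP-negative). Fcgr3 had 2397 and 1550 against 35.6 and 1432 CPM, Fcgr2b 579 and 438 against 24.1 and 212 CPM, and Fcgr4 280 and 518 against 7.81 and 195 CPM. GFP-negative replicate 1 was lowest for each of these named genes, and for Fcer1g the groups overlapped. In GFP-positive replicate 1, 5 of the 9 listed genes were at 0 counts. Among these, Fcgr1 had 0 and 343 against 5.43 and 101 CPM. Fcgrt had 0 and 552 against 11.4 and 257 CPM, and for both the groups overlapped.

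Markers of other cells moved between the same libraries. Over the 11 macrophage markers in the table the summed level was 113153 and 60961 CPM (GFP-positive) against 1110 and 19338 CPM (GFP-negative). Of these markers, 3 of 11 (Lyz2, Chil3 and Ctss) passed as lower in the GFP-negative group, beside 0.0982% of all tested genes called in either direction. Over 9 T cell markers the summed level was 429 and 131 against 42.9 and 49.3 CPM. In GFP-positive replicate 1, where 6063 of 17746 symbols had counts, 8 of the 9 were at 0 counts. Epcam, the gene of the sort marker, had 94.0 and 65.9 against 255 and 88.9 CPM. The 9 neuroendocrine markers summed to 3205 and 1099 against 4355 and 1329 CPM, of which Calca alone gave 3073 and 350 against 2744 and 489 CPM. The other 8 summed to 133 and 749 against 1612 and 840 CPM, lowest in GFP-positive replicate 1, where 3 of the 9 were at 0 counts. Of the 5 endothelial markers, Vwf, Kdr and Emcn had 0 counts in both GFP-positive libraries. In the GFP-negative libraries Vwf had 86.9 and 10.5 CPM, Kdr 2.05 and 3.06 CPM and Emcn 2.36 and 3.95 CPM. The 5 summed to 396 and 5.19 against 94.6 and 30.9 CPM, and Pecam1 gave nearly all of the first value. The 7 epithelial markers summed to 4172 and 1845 against 3045 and 3535 CPM. Among them Sftpc, the surfactant gene of alveolar type II cells, had 147 and 192 against 82.4 and 2276 CPM. It was highest in GFP-negative replicate 2, the library with most antibody RNA. Scgb1a1 was higher in both GFP-positive libraries, at 2884 and 1264 against 301 and 529 CPM. The part of these cell types in the antibody signal was not tested.

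In the fit across all genes, 0 of the 82 antibody and partner genes that passed the filter on low counts had an adjusted p under 0.05 (edgeR, quasi-likelihood F test, Benjamini-Hochberg), beside 0.0982% of all tested genes called in either direction and 0.00613% called higher in the GFP-negative group. At an unadjusted p under 0.05 there were 13 of 82, beside 3.1% of all tested genes, and nothing is read from this number because the genes were chosen on this contrast. Igha had a log2 change (GFP-negative minus GFP-positive) of 3.97 ± 1.81 (SE, n = 2 per group), Igkc 1.498 ± 0.59, Iglc1 8.56 ± 2.74 and Jchain 2.73 ± 1.75. Ighm had 0.65 ± 1.43, Ighg2b 0.66 ± 1.65, Ighg2c -1.33 ± 1.09, Cd79a -0.45 ± 3.66 and Cd79b -0.39 ± 3.29. Several of these turned: without GFP-negative replicate 2, Igkc was at -0.79 and Iglc1 at -0.04. Igkc was at -3.46 with upper quartile scaling and -1.10 with limma-voom. Without GFP-positive replicate 1, Ighm was at -0.35, Ighg2b at -0.34 and Ighg2c at 1.10. With limma-voom Cd79a was at 5.23 and Cd79b at 4.67, and with the replicate block at 5.15 and 4.75. Without GFP-positive replicate 2 the same test called 56 of 85 members, 55 of them higher, beside 45.2% of all tested genes. With GFP-negative replicate 1 left out, 1 member was called, Igkc, beside 0.139% of all tested genes. DESeq2's Wald test called 5 members, all higher in GFP-negative libraries: Ighg1, Ighv1-26, Ighv5-17, Igkv5-39 and Igkv8-27, each at 0 counts in both GFP-positive libraries, beside 0.0913% of the genes it tested called higher. They passed through the group where they are high, on the contrast that chose them, so nothing is read from these calls.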

How the data were processed

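The authors deposited 1 table with whole-number counts per gene symbol and library and, per the file headers, FPKM values, which correct for depth and gene length. Per the labels' protocols, cDNA came from very little RNA by template switching from an oligo(dT) primer and PCR, then fragmentation and paired-end sequencing, without molecular identifiers. The tools named, per the submitters' processing notes, were DESeq2, edgeR, StringTie 2.1.6, HISAT2 2.2.1 and cutadapt 1.9, with build mm10. Which program counted, on which annotation, and how shared reads were handled is not given in the sources used here.

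The count test was edgeR 4.0.16 under R 4.3.3 (filterByExpr, minimum count 10; TMM; glmQLFit and glmQLFTest; Benjamini-Hochberg threshold 0.05), with limma 3.58.1 and DESeq2 1.42.0 as alternatives. Of 17746 symbols, 16301 were tested, 82 of the 90 members among them. The edgeR step was tested on simulated data. SE is the absolute log2 change over the square root of F. Shares used counts or FPKM within a library. Positions and V exon sequences came from GENCODE M21 (mm10), and exon identities from global alignments in Biopython 1.88.

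Named genes were all members that are not V, D or J segments, and all Iglv. Named too were the 8 Ighv and 8 Igkv segments highest in GFP-negative libraries and the 3 V segments highest in each library. Members with an unadjusted p under 0.01 were added. Of the 4 most abundant genes of each list, only some were named. Other genes named were picked after their values were seen. The members and lists were chosen with earlier results of these data known. Listed cell types also included neutrophil markers (0 of 5 tested genes called; summed level 194 and 153 CPM in GFP-positive, 33.7 and 31.6 CPM in GFP-negative libraries), endothelial (0 of 5 called) and epithelial markers (0 of 7). 1 listed B cell gene is counted with its list but its own values are not reported here.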

Additional observations from a re-analysis of the deposited data

How the results depend on the processing

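The test across all genes called 16 genes; it called 0 with upper quartile scaling, 25 with DESeq2's Wald test, 4 with limma-voom, 0 with limma on log2(FPKM + 1) and 0 on log2(FPKM + 0.1), and 1 to 7601 when 1 library was left out. Of the antibody and partner genes 0 were called; 1 (Igkc) was called with library totals, 5 with DESeq2's Wald test, and 0 to 56 with 1 library left out. Of the genes in the lists 3 were called; 0 were called with upper quartile scaling, limma-voom or limma on FPKM with either pseudocount, 1 with DESeq2's Wald test, 6 with the replicate block, and 0 to 50 with 1 library left out. The cause was not tested. The replicate block gave 21 calls over all genes and 0 among the antibody and partner genes; the numbers are not known to pair libraries (correlation of same-numbered deviations -0.07 over 16301 genes). The 15 segments with counts in both GFP-negative and no GFP-positive library ranged from 15 to 56 with 1 library left out. The log2 ratio of summed antibody levels was 1.58 with library totals, 1.36 with DESeq2 size factors, 1.78 in FPKM and -0.41 to 2.08 with 1 library left out. The IgA share in GFP-negative libraries was 23.4% by counts and 17.2% by FPKM. With 1 library left in a group, that library is assumed to vary like the other group. How reads were split between near-identical segments was not tested. Depth limits what 0 counts can show, at 3 counts per library.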

Other observations

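The kappa locus of the mouse spans several megabases, and its V segments lie in both orientations, so that some join by deletion and others by inversion of the DNA between them. Of the 45 Igkv segments, 16 lie on the strand of Igkc, as do 38 of the 100 annotated functional segments. Segments on the opposite strand, which join by inversion, held 44.0% and 73.4% of Igkv counts in GFP-positive and 84.3% and 76.8% in GFP-negative libraries. In GFP-positive replicate 1, Igkv4-91 alone gave 43.9%. The segments ranged from Igkv3-1, 22.3 kb from Igkc, to Igkv2-137, 3170 kb away (mm10). The 20 segments within 1000 kb held 56.0% and 24.2% of Igkv counts in GFP-positive and 47.1% and 51.8% in GFP-negative libraries, and 40 of the 100 annotated functional segments lie there.

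All 23 Ighv segments lie on the strand of Ighm, from Ighv2-2 at 166 kb to Ighv1-81 at 2498 kb. The 9 within 1000 kb held 37.3% of Ighv counts in GFP-positive replicate 2 and 30.6% and 48.9% in the GFP-negative libraries. The J segments had few counts: Igkj5 had 0 and 38 counts in GFP-positive and 8 and 8 in GFP-negative libraries, and Iglj2 0 and 1 against 67 and 1.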
